A study of Caenorhabditis elegans with 60 samples.

Results

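WAGO loci are the places in the Caenorhabditis elegans genome whose transcripts serve as templates for secondary small RNAs, and their small RNA levels were compared between L4 larvae and embryos. The stage table lists 2434 WAGO loci, and the 2024 with a mean of at least 10 over the 4 libraries of these stages were kept. The other 410 loci fell under that minimum and were not tested. Each locus was called larva-rich where its level in L4 larvae was at least 2-fold that in embryos in both genotypes, and embryo-rich where it was at least 2-fold lower in both. These names state the fold alone and are a description with no test.

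The series holds 60 libraries built around HENN-1, the worm methyltransferase that caps the 3' end of certain small RNAs with a methyl group. The compared libraries were whole L4 larvae of the mutant henn-1(pk2295) III and of the wild type strain N2, both grown for 52 h at 20 C, and embryos of the same mutant and of N2 from egg preparations at 20 C. There was 1 library for each genotype and stage. Gravid adults of both genotypes at 68 h and 20 C, from the same table, were used for description. All of these RNAs were size-selected and treated with polyphosphatase, which removes the 5' triphosphate so that such small RNAs can be captured, and the animals ate E. coli OP50. The labels give no age for the embryos and do not say whether libraries of a group came from separate cultures, so that any spread between such libraries may be technical. The mutant is a single allele.

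Secondary small RNAs of this kind are called 22G-RNAs, because most begin with G and share 1 length. RNA-dependent RNA polymerases make them on a target RNA after a primary Argonaute has found it. WAGO Argonautes then carry them, some in the cytoplasm and some, such as HRDE-1, in germline nuclei, where they silence transposons, pseudogenes and many genes. One primary route depends on ERGO-1, which acts in oocytes and embryos on recent gene copies and pseudogenes, and another on ALG-3 and ALG-4, which act in sperm formation.

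The deposited values are a normalised signal whose scaling and depth are unknown, and they summed to 149059 in henn-1 L4 larvae, 238767 in wild type L4 larvae, 234831 in henn-1 embryos and 323500 in wild type embryos. Each library was scaled to the mean of these 4 sums, and every level below is on that scale. The 10 strongest loci held 10.6% and 10.4% of the signal in henn-1 and wild type L4 larvae, against 13.4% and 15.5% in henn-1 and wild type embryos. The table holds WAGO loci alone, and the lists of genes for oogenesis, zygotic regulators, the intestine and P granules have no tested member in it, so the stage labels could not be checked against defining markers. These are whole animals and whole embryos, in which fewer cells of a type and less RNA per cell cannot be told apart.

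Of the 2024 loci, 492 were larva-rich and 402 were embryo-rich, which is 24.3% and 19.9% of those tested. The larva-rich loci supplied 35% of the signal in henn-1 L4 larvae and 37.5% in wild type L4 larvae, against 10.29% in henn-1 embryos and 9.7% in wild type embryos. The embryo-rich loci supplied 3.8% and 4.7% in henn-1 and wild type L4 larvae, against 30.6% and 41.8% in henn-1 and wild type embryos. Since these 4 libraries also chose the loci, a gap in these shares was fixed by the choice, and the shares are a description only. Embryo-rich loci differed by more: the median log2 difference, L4 larvae minus embryos, was -3.03 over them and 1.75 over the larva-rich loci. At least 8-fold in both genotypes, 141 loci were embryo-rich and 30 were larva-rich, and at least 32-fold, 28 and 14.

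Across the 2024 loci, limma on log2(level + 1), with genotype as the pair, found 747 higher in L4 larvae (36.9%) and 468 lower (23.1%) at a Benjamini-Hochberg adjusted p under 0.05, 60% in all. Of the larva-rich loci, 484 were called, and of the embryo-rich loci, 396. Both the patterns and the calls come from the same 4 libraries, so this overlap was largely fixed by the choice and adds no support. The test has 1 residual degree of freedom, so its error measures how unlike the stage difference is in both genotypes. The median log2 difference over all tested loci was 0.43 under scaling to the total, -0.11 in the deposited values and -0.01 under median-of-ratios scaling, and the split of calls moved with it to 358 higher and 635 lower in the deposited values and 387 and 596 under median-of-ratios scaling. Called the same way under all 4 scalings tried were 355 loci higher and 465 lower, and 255 loci were larva-rich and 395 embryo-rich under all 4. Without the wild type L4 library, in the fit that also holds the adults, 749 loci were called, 415 higher and 334 lower.

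The genotypes moved alike at most loci. The log2 differences of henn-1 and wild type had the same sign at 1754 of the 2024 loci, and their Pearson correlation over loci was 0.92, a description in which the loci share the same 4 libraries. In henn-1 alone 628 loci were at least 2-fold higher and 457 at least 2-fold lower in L4 larvae, and in wild type alone 730 and 520. Just inside the 2-fold limit stood C06B8.5 with a smaller log2 difference of 1.00025 and F13H10.5 with -1.02, and just outside it K09F6.2 with 0.998599 and W04A8.3 with -0.99. At the level limit, fbxc-52 had a mean of 10.0115 and was kept, and R10E4.3 had 9.99 and was not.

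**Figure D1:**
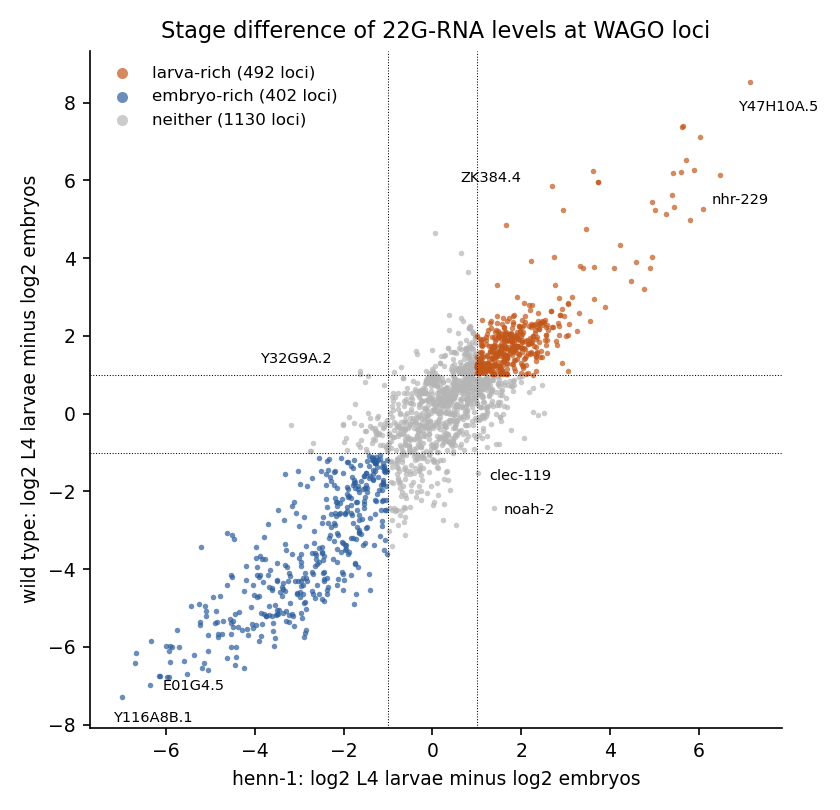
Stage difference of each tested WAGO locus in henn-1 (horizontal axis) and in wild type (vertical axis), as log2 of the level in L4 larvae minus log2 of the level in embryos, with 1 added to each level. Dotted lines mark 2-fold. The 492 larva-rich loci lie at the upper right and the 402 embryo-rich loci at the lower left, where the cloud reaches further from 0.

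The largest difference in favour of L4 larvae was at Y47H10A.5, a gene known as the target of the microRNA mir-243 acting through the Argonaute RDE-1. It had a level of 1485 in henn-1 and 1178 in wild type L4 larvae, against 9.34 in henn-1 and 2.16 in wild type embryos (log2 difference 7.85, SE 0.38, limma adjusted p = 2.61e-05). Adults kept a high level, at 1083 in henn-1 and 1103 in wild type, so that among the 3 stages the embryos stood apart. Its level in dissected wild type gonads was 20.0 ± 8.62 (SD, n = 3) in another table of the series, where the median tested locus had 314.

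The pseudogene F56D6.16 had 238 in henn-1 and 355 in wild type L4 larvae, against 2.63 in henn-1 and 1.55 in wild type embryos (log2 difference 6.58, SE 0.36, limma adjusted p = 3.92e-05). The nuclear hormone receptor gene nhr-229 had 560 and 627 in henn-1 and wild type L4 larvae, against 5.24 and 7.89 in henn-1 and wild type embryos (6.32, SE 0.29, limma adjusted p = 2.61e-05). At both loci the 2 larval values lay far above the 2 embryonic ones. A transposon, WBTransposon00000086, had 284 and 366 in henn-1 and wild type L4 larvae, against 4.68 and 1.2 in henn-1 and wild type embryos. The coding feature Y53G8AM.1 had nearly the same value in each library, with 276 and 358 in henn-1 and wild type L4 larvae, against 4.59 and 1.16 in henn-1 and wild type embryos.

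The other 5 of the 10 largest were the pseudogene Y17D7B.7 and the genes K03H9.3, Y102A11A.3, F46F5.5 and ZK930.6. Their log2 differences lay between 5.69 (ZK930.6) and 6.12 (Y17D7B.7), with a highest limma adjusted p of 0.000244 at Y102A11A.3. Embryonic levels in this group were near the floor of the table: Y17D7B.7 had 87.2 and 121 in henn-1 and wild type L4 larvae, against 0.667 and 0.333 in henn-1 and wild type embryos. Since 1 was added to each level, folds of such loci are understated.

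Among other larva-rich genes, acdh-1 and unc-83 were named after their values were seen, and lin-42 was the first in rank of its list. The gene lin-42, a Period homologue that times moulting, had 29.4 and 33.6 in henn-1 and wild type L4 larvae, against 1.42 and 1.54 in henn-1 and wild type embryos (log2 difference 3.71, SE 0.55, limma adjusted p = 0.00194). acdh-1, an acyl-CoA dehydrogenase, had 42.4 and 46.5 in L4 larvae of henn-1 and wild type, against 0.132 and 0.356 in the embryos (5.19, SE 0.64, limma adjusted p = 0.000942). unc-83, needed for nuclear migration, had 48.6 and 42.3 in L4 larvae of henn-1 and wild type, against 1.64 and 1.14 in the embryos (4.29, SE 0.49, limma adjusted p = 0.000662), and its adult levels of 48.5 and 41.4 were as high as the larval ones.

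On the embryo side, the largest difference was at Y116A8B.1, a locus also listed in the ERGO-1 class by the authors. Its level was 19.2 in henn-1 and 7.64 in wild type L4 larvae, against 2574 in henn-1 and 1351 in wild type embryos (log2 difference -7.14, SE 0.28, limma adjusted p = 2.61e-05). E01G4.5, one of the best known ERGO-1 targets, had 56.4 and 74.9 in henn-1 and wild type L4 larvae, against 4745 and 9649 in henn-1 and wild type embryos (-6.68, SE 0.29, limma adjusted p = 2.61e-05). It was the strongest locus of the henn-1 embryo library, with 2.01% of its signal, and held 4.08% in wild type embryos. Adults were nearer to the larvae, at 333 and 708 in henn-1 and wild type.

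Of the 10 embryo-rich loci with the largest differences, 7 were of the ERGO-1 class: the 2 above, C35D6.3, Y116F11A.1, F39F10.4, the F-box gene fbxc-37 and 1 more gene shown in the plot of the leading loci. The F-box protein made from fbxc-37 would belong to the substrate adaptors of ubiquitin ligases, and its level was 6.66 and 5.59 in henn-1 and wild type L4 larvae, against 479 and 716 in henn-1 and wild type embryos (-6.37, SE 0.32). T05E12.8, F02E11.4 and nhr-204 were not in that class. nhr-204, a nuclear hormone receptor gene, had 3.78 and 3.75 in henn-1 and wild type L4 larvae, against 286 and 394 in henn-1 and wild type embryos (-6.14, SE 0.30, limma adjusted p = 2.61e-05), and was at 136 and 156 in adults of henn-1 and wild type. No larval value overlapped an embryonic one at these 20 leading loci. The same 4 libraries chose them by the size of this difference, so this is a description only.

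**Figure D2:**
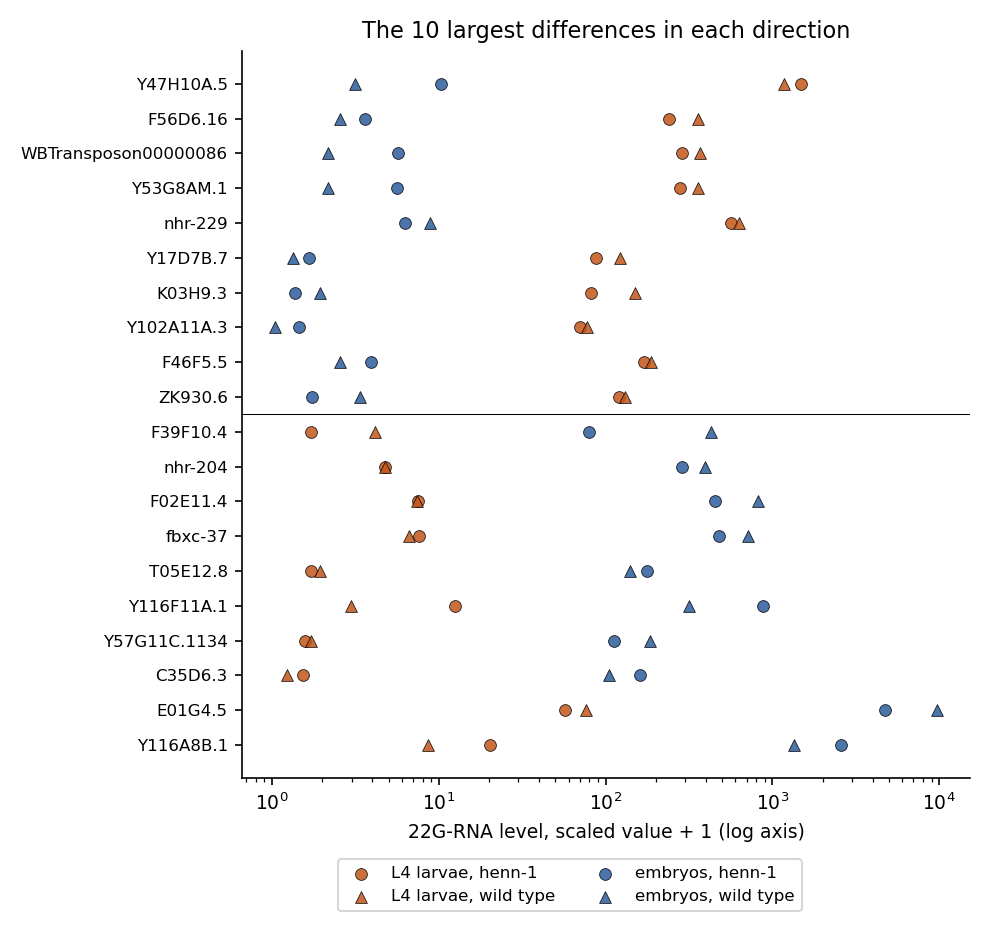
Levels of the 10 loci with the largest differences in each direction, 1 row per locus, in the 4 libraries, as scaled value + 1 on a log axis. Orange marks are L4 larvae and blue marks embryos, with circles for henn-1 and triangles for wild type. Above the line the larval marks lie to the right, and below it the embryonic marks. No row shows overlap, and the same 4 libraries chose the loci by this difference.

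The histone demethylase gene jmjd-3.1, named after its values were seen, was an embryo-rich gene with a high level in adults too. Its level was 11.7 and 15.3 in henn-1 and wild type L4 larvae, against 687 and 775 in henn-1 and wild type embryos (log2 difference -5.67, SE 0.28, limma adjusted p = 2.61e-05). In gravid adults, which carry embryos, it was at 359 and 416 in henn-1 and wild type. Wild type gonads had 2334 ± 274 (SD, n = 3) in their own table.

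By mean level, the 3 strongest loci of L4 larvae were WBTransposon00000216, the helicase gene eri-6, which the authors list in the ERGO-1 class, and the pseudogene Y59H11AR.6. WBTransposon00000216 had 5017 and 4899 in henn-1 and wild type L4 larvae, against 1939 and 1510 in henn-1 and wild type embryos (log2 difference 1.53, SE 0.26, limma adjusted p = 0.00302), a call lost in the deposited values at 0.99. At eri-6 the levels were 3017 and 2979 in henn-1 and wild type L4 larvae, against 1530 and 1424 in the embryos (1.02, SE 0.26, limma adjusted p = 0.0145), and the call was lost in the deposited values (0.47) and under median-of-ratios scaling (0.58). Y59H11AR.6 had 2049 and 3178 in henn-1 and wild type L4 larvae, against 541 and 395 in the embryos (2.46, limma adjusted p = 0.00137), and the call was lost without the wild type L4 library.

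By the same measure the 3 strongest of embryos were E01G4.5 and the pseudogenes Y17D7C.3 and E01G4.7, all of the ERGO-1 class. Y17D7C.3 had 477 in henn-1 and 1681 in wild type L4 larvae, against 4042 in henn-1 and 9894 in wild type embryos (log2 difference -2.82, SE 0.28, limma adjusted p = 0.000347). E01G4.7 had 559 and 1056 in henn-1 and wild type L4 larvae, against 4572 and 2956 in the embryos (-2.26, SE 0.39, limma adjusted p = 0.00309). Next to them stood got-1.2, a glutamate oxaloacetate transaminase gene named after its values were seen, at 528 and 800 in henn-1 and wild type L4 larvae, against 3765 and 2908 in the embryos.

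The kinds of feature differed in their shares. Among 170 tested transposons, 59 were larva-rich and 10 embryo-rich (34.7% and 5.9%), and the median log2 difference was 1.10, beside 0.43 over all tested loci. Among 187 coding features, 84 were larva-rich and 13 embryo-rich (44.9% and 6.95%), with a median of 1.11. Some coding features, such as T05C3.3 and Y53G8AM.1, had the same or nearly the same values as a transposon. Both were counted, so these 2 kinds are not independent. Of 155 pseudogenes 53 were larva-rich and 26 embryo-rich (34.2% and 16.8%), and of the remaining 1512 genes 296 and 353 (19.6% and 23.3%). Over all tested loci these shares were 24.3% and 19.9%. In the deposited values, transposons had a median of 0.58, coding features of 0.59 and pseudogenes of 0.32, beside -0.11 over all tested loci. Under all 4 scalings 40 transposons, 36 coding features and 32 pseudogenes were larva-rich.

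WBTransposon00000275 was called with the lowest adjusted p among transposons after WBTransposon00000086. Its level was 1949 and 1781 in henn-1 and wild type L4 larvae, against 435 and 511 in henn-1 and wild type embryos (log2 difference 1.98, SE 0.27, limma adjusted p = 0.0014). The same 4 values were given to the coding feature T05C3.3, so the reads of both cannot be told apart. In all, 115 tested loci in 38 groups shared their 4 values with another locus to 1%, and with 1 locus kept per group 461 were larva-rich and 396 embryo-rich.

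Loci that the authors also list in the ERGO-1 class leaned to embryos. Of the 79 tested, 42 were embryo-rich and 11 larva-rich (53.2% and 13.9%, beside 19.9% and 24.3% of all tested loci). By limma 46 were called lower and 18 higher (58.2% and 22.8%, beside 23.1% and 36.9% of all tested loci). The class held 5.8% and 8.4% of the signal in henn-1 and wild type L4 larvae, against 17.1% and 21.2% in henn-1 and wild type embryos. The median log2 difference of the class was -1.97, with -2.51 in the deposited values, -2.41 under median-of-ratios scaling and -1.90 under upper quartile scaling. The class was not uniform, as the 11 larva-rich loci show. A separate list held 21 known ERGO-1 target genes, of which H16D19.4, for one, is not in the authors' class. In this list 9 were embryo-rich and 5 larva-rich (42.9% and 23.8%). The larva-rich share was near the 24.3% of all tested loci, and the embryo-rich share was above their 19.9%. The median log2 difference of the list was -0.05, against -0.59 in the deposited values, -0.49 under median-of-ratios scaling and 0.01 under upper quartile scaling. Under all 4 scalings 9 were embryo-rich and 3 larva-rich.

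Beside E01G4.5 and E01G4.7, the embryo-rich targets were F52D2.6, fbxb-37, C40A11.10, F55A4.4, F39E9.7, ZK402.1 and W05H12.2. F52D2.6 had 7.17 and 16.3 in henn-1 and wild type L4 larvae, against 307 and 709 in henn-1 and wild type embryos (log2 difference -5.30, SE 0.28, limma adjusted p = 3.34e-05). C40A11.10 had 37.2 and 17.1 in L4 larvae of henn-1 and wild type, against 1169 and 477 in the embryos (-4.83). The opposite direction was seen at C44B11.6, C36A4.11, T08B6.2, K02E2.6 and H16D19.4. C44B11.6, named after its values were seen, had 751 and 1102 in henn-1 and wild type L4 larvae, against 96.4 and 28.1 in henn-1 and wild type embryos (4.10), a call lost without the wild type L4 library. ZK402.2, ZK402.3 and ZK402.5 had log2 differences of -0.05, 0.14 and -0.18 and were not called.

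Of 60 tested loci also listed in the ALG-3/4 class, 19 were larva-rich and 5 embryo-rich (31.7% and 8.3%, beside 24.3% and 19.9% of all tested loci). The median log2 difference was 0.60, beside 0.43 over all tested loci, and it was 0.07 in the deposited values and 0.16 under median-of-ratios scaling. Under all 4 scalings 9 were larva-rich and 4 embryo-rich. Beside nhr-229 stood sma-1, a spectrin gene listed in the ERGO-1 class as well, with 62.4 and 64.2 in henn-1 and wild type L4 larvae, against 8.37 and 5.61 in henn-1 and wild type embryos (3.03, SE 0.33, limma adjusted p = 0.000577). Sperm genes themselves were few. Of 4 tested, fer-1, a dysferlin of sperm organelles, was called at 64 and 45.3 in henn-1 and wild type L4 larvae, against 28.7 and 7.65 in the embryos (1.77, SE 0.38, limma adjusted p = 0.008). That call was lost in 2 of 13 other settings, among them without the wild type L4 library (1.38). The sperm channel gene spe-41 (0.83, limma adjusted p = 0.0616) and cpb-1 (-0.68, limma adjusted p = 0.0878) were not called.

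Of 22 loci also listed as CSR-1 targets, 4 were larva-rich and 2 embryo-rich (18.2% and 9.1%, beside 24.3% and 19.9% of all tested loci), and 1 was larva-rich under all 4 scalings. The highest in rank was K02D10.1, at 451 and 448 in henn-1 and wild type L4 larvae, against 61.3 and 93.1 in henn-1 and wild type embryos (log2 difference 2.56, SE 0.29, limma adjusted p = 0.000684). Its neighbours K02D10.2 and K02D10.3 were larva-rich too (2.69 and 2.81). Second was T02G5.11, with 75.9 and 85.6 in henn-1 and wild type L4 larvae, against 24 and 26.9 in the embryos (1.63). The lectin gene clec-170 had close levels, with 75.9 and 80.1 in henn-1 and wild type L4 larvae, against 20.7 and 25.5 in the embryos. Whether these 2 loci share reads was not tested.

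**Figure D3:**
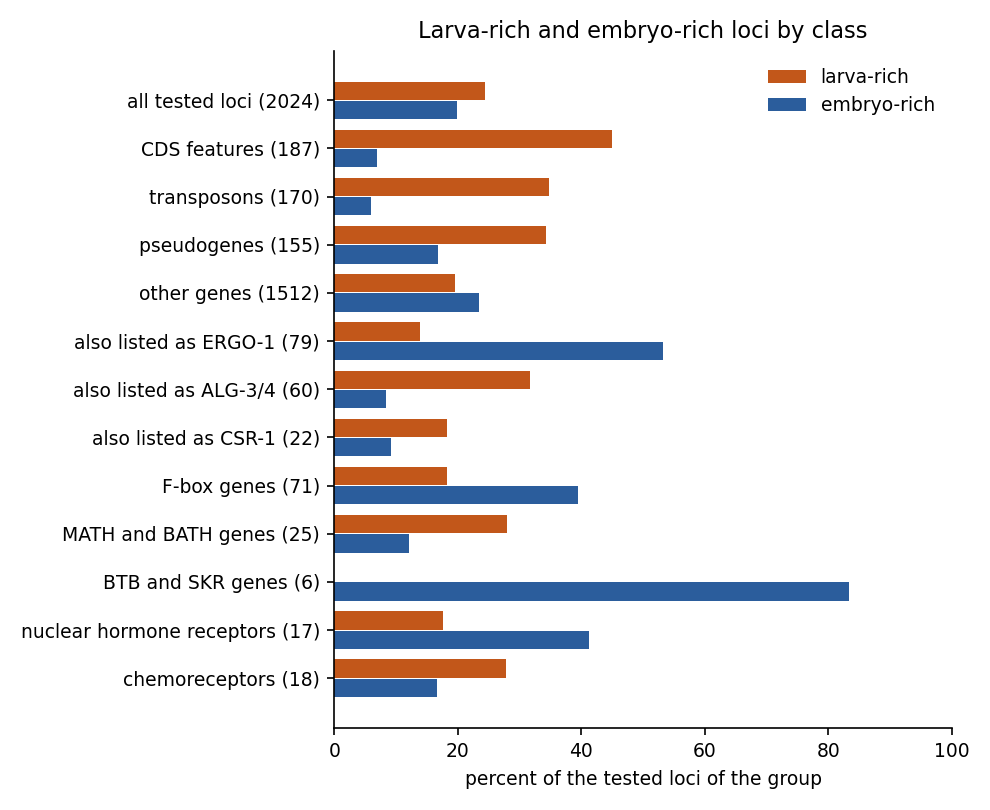
Percent of the tested loci of each class or gene family that were larva-rich (orange, upper bar) and embryo-rich (blue, lower bar), with the number tested in brackets. Transposons and coding features have the long larva-rich bars, and loci of the ERGO-1 class, F-box, BTB and SKR genes and nuclear hormone receptors have embryo-rich bars longer than the 19.9% of all tested loci.

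Among gene families, the adaptors of ubiquitin ligases were the most frequent. F-box genes had 71 tested members, of which 28 were embryo-rich (39.4%) and 13 larva-rich (18.3%), beside 19.9% and 24.3% of all tested loci. By limma 29 were called lower and 16 higher, with a median log2 difference of 0.04 (-0.50 in the deposited values). Under all 4 scalings 28 were embryo-rich and 7 larva-rich. Divided by name after the values were seen, 12 of 18 fbxb genes and 9 of 15 fbxc genes were embryo-rich with 1 larva-rich in each, while 7 of 38 fbxa genes were embryo-rich and 11 larva-rich. After fbxc-37 the lowest adjusted p was at fbxc-38, with 2.52 and 5.63 in henn-1 and wild type L4 larvae, against 210 and 415 in henn-1 and wild type embryos (-5.94, SE 0.29, limma adjusted p = 2.61e-05). Both are also of the ERGO-1 class.

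The genes named btb and skr encode BTB-domain proteins and Skp1-related proteins, which are partners of ubiquitin ligases, though not all of the same kind. Of 6 tested, 5 were embryo-rich (83.3%, beside 19.9% of all tested loci) and were called, and btb-4 was not (0.91, limma adjusted p = 0.0714). skr-21 had 6.66 and 7.74 in henn-1 and wild type L4 larvae, against 260 and 296 in henn-1 and wild type embryos (log2 difference -5.09, SE 0.28, limma adjusted p = 3.92e-05). btb-11 had 0.27 and 0.782 in henn-1 and wild type L4 larvae, against 17.4 and 61.5 in the embryos (-4.50, SE 0.71). The related MATH and BATH genes had 7 of 25 larva-rich (28%), 3 of them under all 4 scalings, and 3 embryo-rich (12%). Over all tested loci these shares were 24.3% and 19.9%. After the values were seen, 6 of 10 math genes but 1 of 15 bath genes were found on the larval side. bath-31 was at 2.88 and 3.75 in henn-1 and wild type L4 larvae, against 62.7 and 214 in the embryos (-4.77, SE 0.42), and math-1 at 44.6 and 64.5 in henn-1 and wild type L4 larvae, against 7.87 and 13.1 in the embryos (2.29, SE 0.31).

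Nuclear hormone receptor genes were found at both ends: 7 of 17 were embryo-rich and 3 larva-rich. These are 41.2% and 17.6%, beside 19.9% and 24.3% of all tested loci. The median log2 difference was -0.01, against -0.51 in the deposited values, -0.42 under median-of-ratios scaling and 0.05 under upper quartile scaling. Under all 4 scalings 7 were embryo-rich and 2 larva-rich. Of 18 chemoreceptor genes 5 were larva-rich and 3 embryo-rich (27.8% and 16.7%), near the 24.3% and 19.9% of all tested loci. srh-171 had 79.9 and 165 in henn-1 and wild type L4 larvae, against 12.5 and 33.1 in henn-1 and wild type embryos (2.43, SE 0.29, limma adjusted p = 0.000803). srd-50 (2.48, SE 0.33) was also called. Among 5 C-type lectin genes clec-170 was higher in L4 larvae (1.72, SE 0.29, limma adjusted p = 0.00273) and clec-238 lower (-2.16, SE 0.45, limma adjusted p = 0.0067). The call at clec-238 was lost in 1 of 13 other settings.

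Among 3 insulin-like and neuropeptide genes, 2 were embryo-rich, beside 19.9% of all tested loci. ins-5 had 2.52 and 6.18 in henn-1 and wild type L4 larvae, against 64.1 and 107 in henn-1 and wild type embryos (log2 difference -4.06, SE 0.33, limma adjusted p = 0.000149). At ins-17 the levels were 3.06 and 44.1 in L4 larvae of henn-1 and wild type, against 18 and 128 in the embryos (-1.87, SE 0.33, limma adjusted p = 0.0036), so that the larval and embryonic values overlapped across genotypes and not within them. This call was lost in 4 of 14 other settings, among them those without any 1 of the libraries except wild type embryos. Cuticle genes were mixed. Of 8 collagens, 4 were called higher (50%, 2 under all 4 scalings) and 1 lower (12.5%), beside 36.9% and 23.1% of all tested loci. The moulting gene mlt-8 was lower, with 5.42 and 6.35 in henn-1 and wild type L4 larvae, against 27.7 and 44.8 in the embryos (-2.40, SE 0.38, limma adjusted p = 0.00244).

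Of 5 histone genes 2 were called, both lower in L4 larvae (40%, beside 23.1% of all tested loci). his-37 had a log2 difference of -1.72 (SE 0.57, limma adjusted p = 0.035) and his-35 of -1.25 (SE 0.46, limma adjusted p = 0.0481). Both calls were lost with a pseudocount of 5, that of his-35 also without the henn-1 L4 library. Of 13 other settings, the call at his-37 was lost in 2 and that at his-35 in 3. The linker histone gene his-24 had 624 and 760 in henn-1 and wild type L4 larvae, against 1493 and 816 in henn-1 and wild type embryos, and was not called (-0.68, limma adjusted p = 0.12). Some histone genes have near-identical copies, and the reads of such genes may be split between copies. The collagens named beside col-111 were col-45 (1.35, SE 0.29, limma adjusted p = 0.00728) and col-157 (1.29, SE 0.33, limma adjusted p = 0.0147). The call at col-45 was lost in 1 of 13 other settings. That at col-157 was lost in 5 of 13, among them the deposited values (0.76) and median-of-ratios scaling (0.85).

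Other libraries of the series hold the same stages in wild type: 3 of L4 larvae at 52 h and 20 C without periodate, from a set on oxidation, and 3 of embryos from a set counted by read length. The 2 tables were normalised separately, so levels were taken as parts per 1000000 (ppm) over the 2344 loci in all tables, and no test was run between them. The embryo libraries held 606066, 3187228 and 3446299 counted reads over WAGO loci. Over the 1934 tested loci in both tables, L4 larvae lay above all embryo libraries at 46.3% and below all of them at 45.3%. Of the 475 larva-rich loci in both tables, the 3 larval libraries lay above the 3 embryo libraries at 423 and below them at 26. Of the 356 embryo-rich loci in both tables, the larval libraries lay below at 354 and above at 0.

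The order of the loci was similar, and the sizes were not the same. The correlation over 1934 loci of the wild type log2 difference in the stage series with that in these libraries was 0.92 (Spearman 0.88), as a description without a test. The median wild type log2 difference was 1.69 over larva-rich loci in the stage series and 1.34 over those of them in both tables in the other sets, and over all tested loci 0.47 and 0.01. Y47H10A.5 had 6248, 4135 and 3246 ppm in the L4 libraries, against 5.31, 2.37 and 3.56 in the embryo libraries. nhr-204 had 16, 18.7 and 12.0 in the L4 libraries, against 1879, 1749 and 1713 in the embryo libraries. jmjd-3.1 had 32, 39.9 and 47.2 in L4 larvae, against 3544, 3800 and 3909 in embryos. Of the 90 tested loci missing from the read-length table as given here, 79 were of the ERGO-1 class and 46 were embryo-rich, so most leading ERGO-1 loci were not analysed here in those libraries.

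The 26 larva-rich loci that went the other way were led by the collagen gene col-111. In the stage series it had 210 and 213 in henn-1 and wild type L4 larvae, against 59.9 and 60.4 in henn-1 and wild type embryos (log2 difference 1.80, SE 0.27, limma adjusted p = 0.00211). In the other sets it had 106, 102 and 102 ppm in L4 larvae, against 1046, 918 and 968 in embryos. The next were egl-21, a neuropeptide-processing carboxypeptidase (stage series wild type 1.72, other sets -2.38), the cadherin gene cdh-1 (1.44 and -2.27) and C07G3.8 (1.5 and -1.83). All 26 were genes or pseudogenes, none a transposon or coding feature, and the part of library, table or culture in this was not tested.

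**Figure D4:**
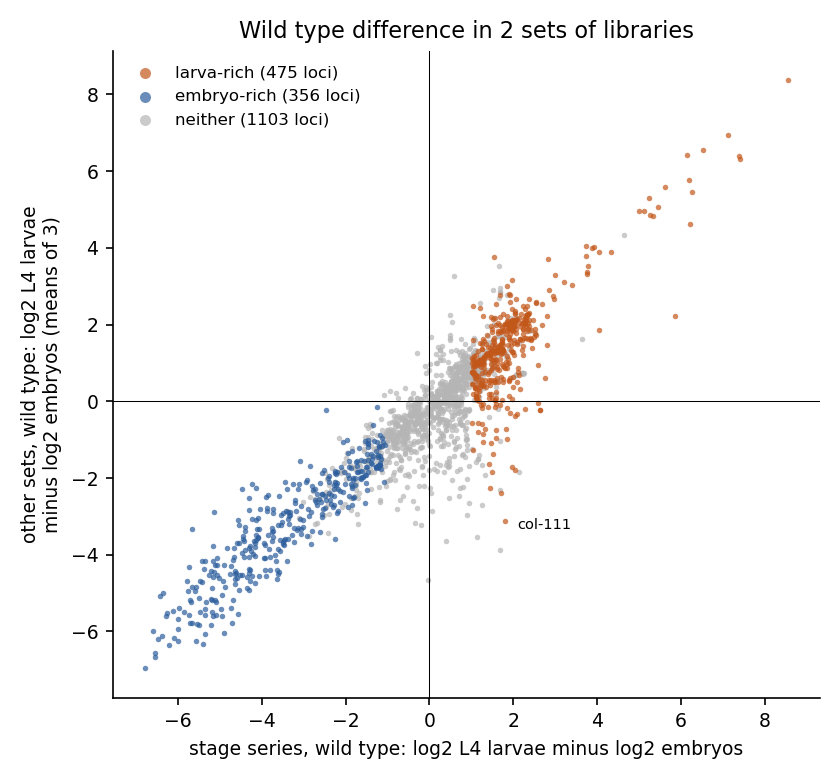
Wild type stage difference of the 1934 tested loci in both tables: log2 L4 larvae minus log2 embryos in the stage series (horizontal axis, level + 1) and in the libraries of the other sets (vertical axis, means of 3 in ppm + 10). Embryo-rich loci lie below 0 on the vertical axis and most larva-rich loci above it, with col-111 the lowest of the larva-rich loci.

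In gravid adults, the level was between those of L4 larvae and embryos in both genotypes at 468 of the 492 larva-rich loci and at 295 of the 402 embryo-rich loci. The choice of these loci fixed a gap of at least 2-fold for the adult level to fall in, so these counts are a description only. Larva-rich loci supplied 23.4% and 23.7% of the signal of henn-1 and wild type adults, and embryo-rich loci 12.0% and 15.8%. At Y60A9A.3, an embryo-rich pseudogene, embryos of henn-1 and wild type had 322 and 478, L4 larvae 9.90 and 10.4 and adults 242 and 311. At T16A1.9, an embryo-rich coding feature of the ERGO-1 class, embryos of henn-1 and wild type had 1362 and 718, L4 larvae 22.5 and 10.24 and adults 43.8 and 34.8.

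**Figure D5:**
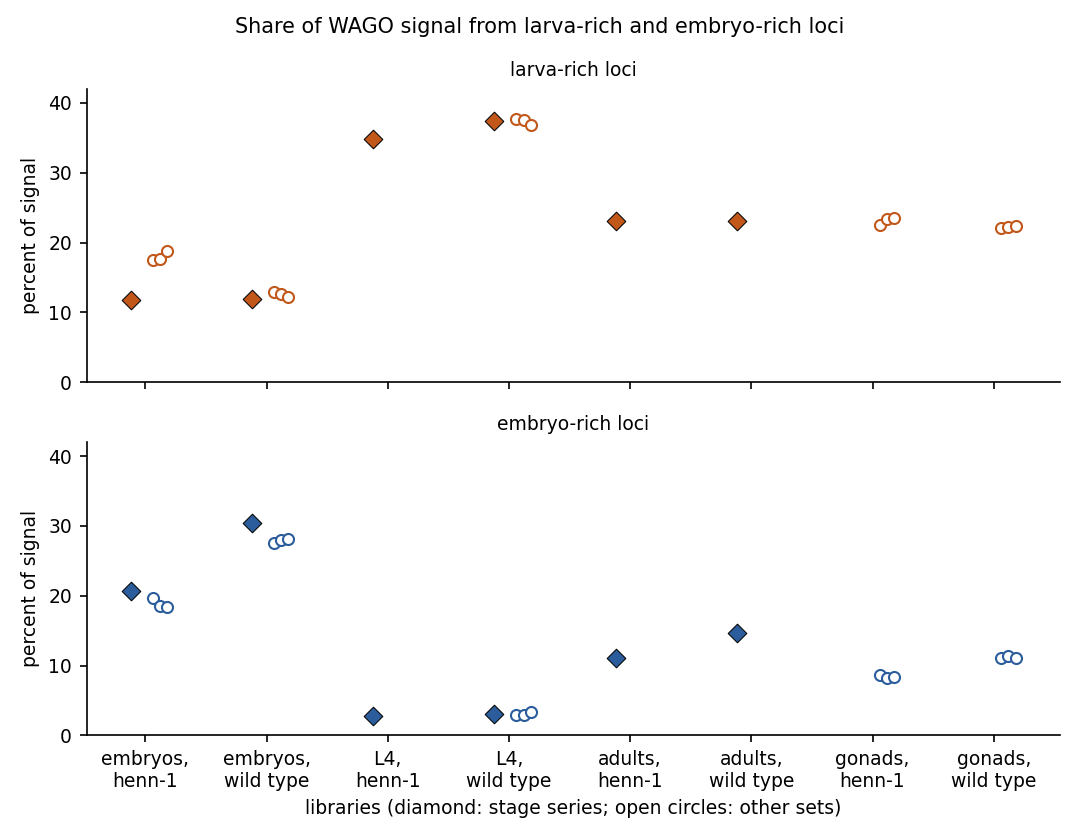
Percent of the signal, over the 2344 loci in all tables, that came from larva-rich loci (top) and embryo-rich loci (bottom) in each library. Diamonds are the stage series, which chose the loci, and open circles the libraries of other sets, including dissected gonads of gravid adults. L4 larvae have the highest larva-rich share and the lowest embryo-rich share, and henn-1 embryos a lower embryo-rich share than wild type embryos in both sets.

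The difference between genotypes was read in libraries that had no part in choosing the patterns. In dissected gonads (gravid adults of 68 to 70 h at 20 C, 3 libraries per genotype), 418 of the 2024 tested loci, 20.7%, were at least 2-fold lower in henn-1 than in wild type by their means. Among embryo-rich loci 178 of 402 were (44.3%), and among larva-rich loci 55 of 492 (11.2%). The median log2 difference, henn-1 minus wild type, was -0.93 over embryo-rich, -0.32 over larva-rich and -0.34 over all tested loci. fbxc-39 had 45.4 ± 4.77 in henn-1 gonads and 319 ± 49.5 in wild type gonads (SD, n = 3 each), and mlt-8 had 130 ± 10.1 in henn-1 gonads and 531 ± 76.1 in wild type gonads (SD, n = 3 each).

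In the embryo libraries of the read-length set, embryo-rich loci supplied 19.6%, 18.5% and 18.3% of the signal in henn-1, against 27.5%, 28.0% and 28.1% in wild type. Larva-rich loci supplied 17.5%, 17.7% and 18.8% in henn-1, against 13%, 12.7% and 12.2% in wild type. The 3 henn-1 values did not overlap the 3 wild type values for either pattern. The henn-1 libraries held fewer counted reads over WAGO loci, with 322462, 177667 and 248829, against 606066, 3187228 and 3446299 in wild type. Genotype and depth cannot be told apart here, and the part of depth was not tested. In L4 larvae of the stage series the embryo-rich share was 2.77% in henn-1 and 3.06% in wild type over the same loci.

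Immunoprecipitates of 2 WAGO Argonautes from whole gravid adults (68 h, 20 C), FLAG-tagged HRDE-1 and GFP-tagged WAGO-1 (the strain of which also carries mut-16::mCherry), gave another readout, with 1 library of each IP and each input and so no test. Over all tested loci 10.5% were at least 2-fold higher in the HRDE-1 IP than in its input, and 13.9% in the WAGO-1 IP. Embryo-rich loci had 77 of 402 past 2-fold for HRDE-1 (19.2%) and larva-rich loci 36 of 492 (7.3%). For WAGO-1 these were 63 (15.7%) and 44 (8.9%). No embryo-rich locus of the ERGO-1 class passed 2-fold for either Argonaute, and their medians were -0.90 for HRDE-1 and -0.67 for WAGO-1 on the log2 scale, against 0.74 and 0.51 over the other embryo-rich loci.

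The 30 loci that were at least 8-fold larva-rich differed among themselves in these IPs. At 18 of them (60%, against 27.9% of all tested loci) the log2 ratio of IP to input was above 0 for HRDE-1 and below 0 for WAGO-1, with values from 0.45 to 1.65 for HRDE-1 and from -1.93 to -0.58 for WAGO-1. nhr-229 was one of these (1.11 for HRDE-1 and -0.89 for WAGO-1), as were ZK930.6 (1.65 and -1.64) and K03H9.3 (1.15 and -1.09). At 10 others both ratios were below 0, against 5.0% of all tested loci. This group held Y47H10A.5 (-2.92 and -1.69), F56D6.16 (-2.55 and -2.48), Y17D7B.7 (-2.28 and -2.36) and unc-83 (-2.05 and -0.05). At the remaining 2, acdh-1 (-2.24 and 0.82) and lin-42 (-2.03 and 0.67), the ratio was below 0 for HRDE-1 and above 0 for WAGO-1. None of the 30 had both ratios above 0, against 1255 of all 2024.

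The same 30 loci had low levels in gonads. Their wild type gonad levels ran from 0.309 to 311 with a median of 44.4, beside a median of 314 over all tested loci and 223 over embryo-rich loci at least 8-fold. Of the 33 tested loci that were at least 8-fold higher in the wild type L4 libraries of the oxidation set than in wild type gonads, in ppm, 31 were larva-rich and none embryo-rich. acdh-1 had 564, 396 and 324 ppm in those L4 libraries, against a mean of 2.29 ppm in wild type gonads. Y102A11A.3 had 332, 212 and 177 ppm there, against a mean of 0.139 ppm in wild type gonads.

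The messenger RNA of these loci was read in wild type gonads. Among loci with an mRNA value, the median normalised level was 5.80 over 355 larva-rich loci, 17.4 over 363 embryo-rich loci and 28.1 over 964 loci of neither pattern. These loci include transposons, of which 59 were larva-rich and 10 embryo-rich. The median was 0 over the 170 tested transposons and 25.7 over the 1512 other genes. The medians of the patterns thus mix both kinds, and genes alone were not compared. High mRNA and a stage difference also occurred together: sma-1, larva-rich, had 5205 ± 70.7 and K02D10.1 had 1663 ± 41.5, while jmjd-3.1, embryo-rich, had 52.1 ± 10.4 (SD, n = 3 each). Y47H10A.5 was listed at 0 in all 3 gonad mRNA libraries. The mRNA of L4 larvae and embryos was not analysed here.

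Read lengths set a few larva-rich pseudogenes apart in the wild type embryo libraries. Over the 1916 tested loci with at least 100 reads, the median share of reads of 26 nt, the length of ERGO-1 and ALG-3/4 primary RNAs, was 0.028%, and 3 loci reached 4%. None of the 79 tested loci of the ERGO-1 class is in the read-length table as given here, so these shares cover the other loci. The 3 loci were larva-rich pseudogenes: H16D19.6 with 35 of 205 reads (17.1%), Y50E8A.14 with 14.1 of 234 (6.03%) and ZK384.4 with 31 of 716 (4.33%), where fractions arise from reads shared between loci. F56D6.16, with fewer reads, had 30.7 of 62.1 (49.4%). ZK384.4 had 87.5 and 287 in henn-1 and wild type L4 larvae, against 12.58 and 3.94 in henn-1 and wild type embryos of the stage series (log2 difference 4.28, SE 0.66, limma adjusted p = 0.00221), a call lost without either L4 library.

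Loci of one pattern were sometimes neighbours. There were 282 pairs of tested loci next to each other among the genes and pseudogenes of the reference annotation. Both were embryo-rich in 30 and both larva-rich in 30, and in 9 the patterns were opposite. Over all tested loci 19.9% were embryo-rich and 24.3% larva-rich, so some such pairs would arise in any order. Whether these counts exceed that was not tested. Runs of 3 were the F-box genes fbxc-40, fbxc-39 and fbxc-42, the F44F1 loci F44F1.3, F44F1.5 and F44F1.6 and the F56D5 loci F56D5.3, F56D5.6 and F56D5.4 on the embryo side, and on the larval side H16D19.7, H16D19.4 and H16D19.6 and the 3 K02D10 loci. fbxc-39 had 3.45 and 5.68 in henn-1 and wild type L4 larvae, against 45 and 231 in henn-1 and wild type embryos (log2 difference -4.24, SE 0.45, limma adjusted p = 0.000492). The calls at F44F1.6, F56D5.3 and F56D5.4 were lost with a pseudocount of 5, and those at fbxc-42, F44F1.3, F44F1.6 and the 3 F56D5 loci without the wild type L4 library. Of 13 other settings, the call was lost in 2 at fbxc-42 and F56D5.6, in 3 at F44F1.3, F44F1.6 and F56D5.3, and in 4 at F56D5.4. Of the 282 pairs, 3 shared all 4 values.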

How the data were processed

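Small RNAs at WAGO loci were analysed from deposited tables. The stage table and the IP table hold a normalised signal deposited by the authors, with a scaling that no source used here states. At most 27.5% of the stage table's low values were whole multiples of 1 step (tolerance 0.1), so whole reads could not be recovered. The gonad and oxidation tables hold a signal the authors made with DESeq2 1.18.1 per the submitters' processing notes, and the gonad mRNA signal was likewise made with DESeq2, after steps for which these notes name RSEM 1.3.0, STAR 2.5.0a and Trimmomatic 0.35. The read-length table deposited by the authors holds estimated counts per locus and length. For the small RNAs, the sources used here name neither aligner nor genome build. In the tables used, 8 columns were not used.

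Libraries were scaled to a common total of 236539, and log2(value + 1) was fitted with limma 3.58.1 in R 4.3.3 (trend on the mean, stage and genotype as terms, 1 residual and 6.04 prior degrees of freedom), after a test on simulated data. A level is thus relative to all WAGO loci of its library. Named loci are the 10 largest called differences each way past the median level, those of lowest adjusted p in each list or class up to about 30, the 3 strongest of each stage and the 3 with the largest opposite differences between genotypes. Other names were chosen after their values were seen. Other scalings, pseudocounts, filters, model terms and left-out libraries were tried. The henn-1 gene is not among the loci. The comparison, the gene lists and the members were chosen with earlier results of these data known. RefSeq's annotation of WBcel235 matched 1630 of the 2024 tested loci by sequence name and served for neighbours only, and symbols are those of the files.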

Additional observations from a re-analysis of the deposited data

Results flagged for a closer look

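At 4 of the 2024 tested loci the stage difference was at least 2-fold in opposite directions in the 2 genotypes, and the 3 largest are given here. The difference between genotypes was not tested at these loci, each of which rests on 1 library per genotype and stage. noah-2, a gene for a cuticle and epidermal matrix protein, had a log2 difference of 1.38 in henn-1 and -2.42 in wild type, with 20.9 in henn-1 and 2.77 in wild type L4 larvae, against 7.43 in henn-1 and 19.1 in wild type embryos. Y32G9A.2 had -1.63 in henn-1 and 1.10 in wild type, with 1.26 and 75.0 in henn-1 and wild type L4 larvae, against 5.999 and 34.5 in henn-1 and wild type embryos. The lectin gene clec-119, also listed in the ALG-3/4 class, had 1.04 in henn-1 and -1.54 in wild type, with 24 and 26.7 in henn-1 and wild type L4 larvae, against 11.2 and 79.4 in henn-1 and wild type embryos. In the wild type libraries of the other sets, noah-2 had 2.23, 4.67 and 5.15 parts per 1000000 in L4 larvae, against 118.9, 145 and 164 in embryos. clec-119 had 155, 174 and 168 there in L4 larvae, against 343, 301 and 335 in embryos, and Y32G9A.2 had 314, 342 and 314 in L4 larvae, against 201, 218 and 212 in embryos.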

How the results depend on the processing

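The number of loci called, 1215 in the analysis as reported, was 603 without the genotype term (304 higher, 299 lower) and 429 of 829 tested with a mean of at least 50 (223 higher, 206 lower). Among the named loci, 13 lost their call without the genotype term. Leaving out 1 of the 4 libraries, in the fit with adults, gave 749 to 1662 calls, 415 to 1025 of them higher and 334 to 637 lower. The higher calls were 358 in the deposited values and 387 under median-of-ratios scaling. The larva-rich loci were 255 in the deposited values, 296 under median-of-ratios scaling and 170 with a mean of at least 50, and the embryo-rich loci then 184, or 354 of both kinds. Other scalings, pseudocounts, filters and fits kept these counts within 1.5 times. The count with 1 locus per group of copies was added after seeing the data. At the loci of opposite differences the fitted direction turned: leaving out 1 library gave -1.95 to 0.92 at noah-2, with 0.89 without the wild type L4 library, -1.37 to 0.88 at clec-119, with 0.56 without the wild type L4 library, and -1.63 to 1.10 at Y32G9A.2, with 0.41 without the henn-1 L4 library and 0.10 with a pseudocount of 5. The cause was not tested. Beyond the genotype term, which the reported fit already holds as the pair, no paired analysis was possible because the stage libraries have 1 library per group and so no replicate numbers to match. With unknown depth, no counting interval can be given for low levels.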
